A study of Mus musculus with 6 samples.

Results

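Small nucleolar RNA host genes are spliced genes whose introns are cut into small nucleolar RNAs (snoRNAs), and 9 noncoding ones, Gas5, Snhg1, Snhg3, Snhg5, Snhg6, Snhg7, Snhg8, Snhg12 and Epb4.1l4aos, were followed here. They were chosen by symbol and are 9 of the 32531 gene rows in each library. The row 2410004N09Rik, a RefSeq synonym, was taken for Epb4.1l4aos. All 9 passed the filter on low counts.

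The libraries come from the hypothalamus of untreated adult mice of the line Lhx5-TRAP DT154, in which ribosomal protein L10a joined to EGFP is made under the Lhx5 driver. The RNA of polysomes caught by antibodies to EGFP (IP) makes up 3 libraries, and the unbound RNA, named input in the sample titles, makes up the other 3. Both groups carry the same transgene, and the labels give neither sex nor strain, nor whether the libraries of a group come from separate animals. The p-values therefore measure only the spread between these libraries.

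A host transcript has 2 products with different fates. The introns yield snoRNAs, which join proteins into snoRNPs that guide chemical modification of ribosomal RNA in the nucleolus. The spliced exons, which hold no long reading frame, leave the nucleus, are known to engage ribosomes and in several hosts are then destroyed by nonsense-mediated decay (NMD), the pathway that removes RNAs with early stop codons. Many hosts start at a terminal oligopyrimidine tract, the leader type of ribosomal protein genes. The comparison sets the level of each host gene in RNA held by the tagged ribosomes of Lhx5-driver cells against that in unbound RNA. The unbound RNA holds that of other cells too, and counts per gene do not separate spliced from unspliced transcripts.

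The start regions and a few of the encoded snoRNAs show what these transcripts are made of. The sequences of the starts run from 50 bases before to 29 after the annotated RefSeq start on GRCm38.p6, 5′ to 3′ on the gene's strand, for the 5 genes that changed and for Snhg12. Capitals mark TATA lying wholly between 40 and 20 bases before the start, and a run of C followed by at least 4 letters that are C or T, beginning within 5 bases of the start.
Gas5, downstream start, chr1:161035116-161035195, plus strand: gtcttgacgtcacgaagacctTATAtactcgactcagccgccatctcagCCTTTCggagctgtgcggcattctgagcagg
Snhg1, chr19:8723437-8723516, plus strand: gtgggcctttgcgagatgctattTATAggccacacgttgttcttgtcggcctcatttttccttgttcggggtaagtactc
Snhg3, chr4:132353657-132353736, minus strand: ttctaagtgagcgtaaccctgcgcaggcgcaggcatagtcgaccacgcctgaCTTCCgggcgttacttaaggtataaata
Snhg5, chr9:88522868-88522947, minus strand: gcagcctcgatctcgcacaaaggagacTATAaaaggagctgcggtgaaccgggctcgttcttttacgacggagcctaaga
Snhg7, chr2:26640215-26640294, minus strand: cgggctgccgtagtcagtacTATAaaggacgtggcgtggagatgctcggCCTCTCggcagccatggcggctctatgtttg
Snhg12, chr4:132308628-132308707, plus strand: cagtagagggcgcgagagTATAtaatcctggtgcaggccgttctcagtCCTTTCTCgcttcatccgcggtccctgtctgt

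RefSeq's table held 8 starts for 7 of the 9 genes, with none for Snhg6 and Epb4.1l4aos. TATA, which reads the same on both strands, lay in that window at 6 of the 8 starts, against 5.49% of 32841 mouse promoters of the same length. The pyrimidine run was present at 5 starts, against 18.3% of promoters, and both were present at 4, against 1.06%. A search of the opposite strand asked that the whole run lie in a fixed window around the start, unlike the forward search. It found the run at 0 of the 8 starts, against 21.8% of promoters. Runs that reach further upstream were missed, as at Snhg8, so the 2 searches are not alike. The 2 motifs do not overlap in these windows. The members that changed held them unevenly: Gas5 at its downstream start and Snhg7 held both, Snhg1 and Snhg5 held TATA alone and Snhg3 the run alone. The upstream Gas5 start, not shown, held neither. The motifs and windows were picked with these sequences in view, so the shares are a description.

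GENCODE M21 places 30 snoRNAs within the 9 genes, 9 of them in Gas5 (1 under the symbol Mir5117) and 8 in Snhg1. Their sequences on GRCm38 are shown for Gas5, which has the most snoRNAs of the hosts that fell, for another that fell (Snhg5) and for the host with the largest rise (Snhg3). In Snord47 and Snord50a capitals mark box C (TGATGA) and box D (CTGA) of the methylation guides, and in Snora73a the ACA box near the 3′ end of the other class. The U17 family to which Snora73a belongs acts in cleavage of the ribosomal RNA precursor.
Snord47, in Gas5, chr1:161038082-161038158, plus strand: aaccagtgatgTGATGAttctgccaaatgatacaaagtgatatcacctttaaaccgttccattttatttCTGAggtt
Snord50a, in Snhg5, chr9:88521529-88521600, minus strand: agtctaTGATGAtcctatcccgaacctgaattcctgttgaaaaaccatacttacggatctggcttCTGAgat
Snora73a, in Snhg3, chr4:132352775-132352979, minus strand: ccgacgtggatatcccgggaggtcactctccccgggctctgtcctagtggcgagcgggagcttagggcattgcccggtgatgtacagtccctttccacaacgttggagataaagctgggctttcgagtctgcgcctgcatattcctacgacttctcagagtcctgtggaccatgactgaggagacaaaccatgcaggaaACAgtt

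Gene counts were 32471045 to 46293837 in IP and 32926146 to 40768577 in unbound libraries. Lhx5, the driver, stood at 61.8 ± 7.59 CPM (counts scaled to a common library size after TMM scaling) in IP and 3.39 ± 2.51 CPM in unbound RNA (SD, n = 3 each). All 24 astrocyte, oligodendrocyte and microglia markers listed fell, the medians of the 3 lists lying between -3.89 and -3.04 on the log2 scale. Of 12 pan-neuronal markers 7 rose and 1 fell. Among all genes tested 23.2% fell and 21.1% rose. The summed level of the 8 oligodendrocyte markers ranged from 323 to 533 CPM in IP and from 3414 to 6583 CPM in unbound RNA, and that of the 12 neuronal markers from 17387 to 18455 CPM in IP and from 11824 to 13311 CPM in unbound RNA. For the 8 astrocyte markers the range was 130 to 325 CPM in IP and 1195 to 1676 CPM in unbound RNA, and for the 8 microglia markers 5.49 to 15.1 CPM in IP and 63.9 to 98.9 CPM in unbound RNA. Of 5 vascular and 4 choroid plexus markers tested, 3 and 2 fell, against 23.2% of all genes tested. No marker tested was at 0 in any library. Of the markers that fell, C1qa, C1qc, Tyrobp, Flt1 and Kcne2 each had an IP library at 0.04 to 0.23 CPM. That is too low for the IP group alone to clear the filter on low counts. It favoured a fall in advance, so these calls are a description. The part of this difference in cell makeup in the values of the host genes was not tested, and in bulk RNA fewer cells of a type and less RNA per cell cannot be told apart. Unbound replicate 3 stood apart: Ttr, a choroid plexus transcript, was at 30.7 CPM there and at 1961 and 2156 CPM in unbound replicates 1 and 2. Reads ambiguous between features were 1.61% ± 0.029 in IP and 8.31% ± 1.07 in unbound libraries, and reads in no feature 7.74% ± 0.23 in IP and 13.1% ± 0.49 in unbound libraries (SD, n = 3 each). Hosts overlap their own snoRNAs and in places other genes, and the part of these read classes in their values was not tested.

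The host genes did not move as a block. Gas5, Snhg5 and Snhg7 fell in IP, Snhg3 and Snhg1 rose, and Snhg6, Snhg8, Snhg12 and Epb4.1l4aos did not pass the test (edgeR's quasi-likelihood test, adjusted p under 0.05 over 16991 genes). Of the 9 genes 5 (55.6%) were called, against 44.3% of all genes tested. The 3 falls compare with 23.2% of all genes called lower and the 2 rises with 21.1% called higher, so the counts stood close to those of the whole table. The median log2 fold change was -0.60 over the 9 genes and -0.01 over all genes tested, with values from -1.52 to 0.97.

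**Figure D1:**
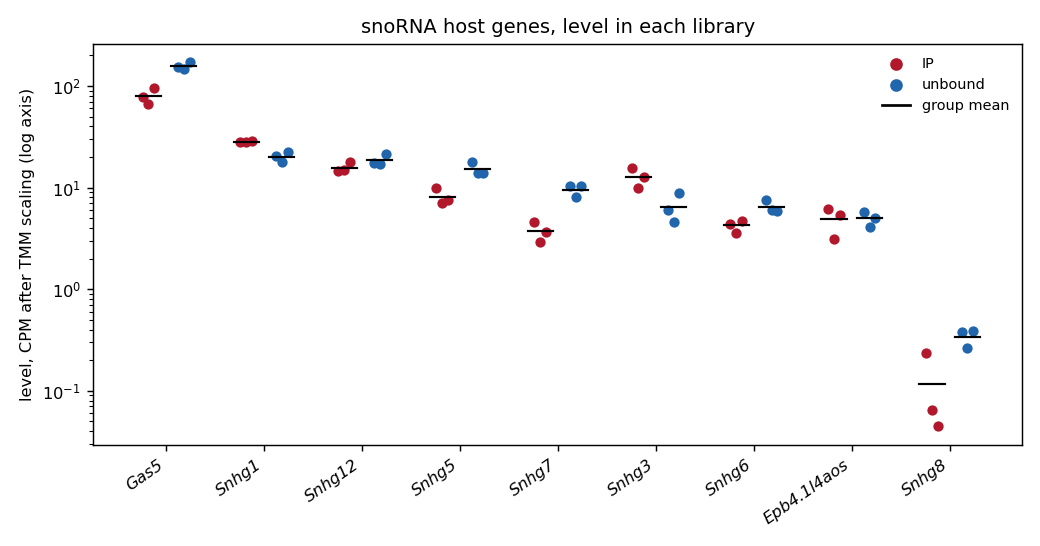
Level of each host gene in each library as CPM after TMM scaling on a log axis, with IP libraries in red, unbound libraries in blue and group means as bars. Gas5 has the most reads of the 9 in every library. IP and unbound libraries do not overlap for 7 of the 9 genes, Snhg8 at 2 to 16 counts among them, against 55.9% of all genes tested.

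Gas5, growth arrest specific 5, is the host of box C/D snoRNAs long known to associate with ribosomes. It lies at chr1:161034601-161038539 on the plus strand (RefSeq, GRCm38.p6). Its levels were 77.8, 65.7 and 95.6 CPM in IP libraries and 153, 147 and 171 CPM in unbound libraries. The highest IP library was well under the lowest unbound library. The log2 fold change was -0.98 ± 0.16 (SE; edgeR quasi-likelihood test, Benjamini-Hochberg adjusted p = 0.00185), a level 1.97-fold lower in IP. The fall passed in all 16 alternative fits, with values between -1.49 and -0.84. Zbtb37 overlaps the upstream end of Gas5, on the minus strand in GENCODE, and stood at 5.41 ± 0.80 CPM in IP libraries and 14.5 ± 2.18 CPM in unbound libraries (SD, n = 3 each).

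Snhg7 and Snhg5 fell as well. Snhg7, at chr2:26637176-26640244 on the minus strand, carries the pseudouridylation guides Snora43 and Snora17. It stood at 4.61, 2.93 and 3.69 CPM in IP libraries and at 10.4, 7.99 and 10.3 CPM in unbound libraries. The groups lay apart, with a log2 fold change of -1.35 ± 0.24 (SE; edgeR quasi-likelihood test, Benjamini-Hochberg adjusted p = 0.00253). This call too held in all 16 alternative fits, between -1.86 and -1.19.

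Snhg5, the host of the U50 snoRNAs Snord50a and Snord50b, lies at chr9:88521052-88522897 on the minus strand. Its levels were 9.84, 7.04 and 7.58 CPM in IP libraries and 17.97, 13.9 and 14.0 CPM in unbound libraries. Again no IP library reached an unbound library, with a log2 fold change of -0.91 ± 0.20 (SE; edgeR quasi-likelihood test, Benjamini-Hochberg adjusted p = 0.00713). With the lane 2 libraries alone, 2 a group, it was -0.87 and did not pass (edgeR quasi-likelihood test, adjusted p = 0.0685). The other 15 alternative fits called it.

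Snhg3 rose, the largest rise among the 9. It lies at chr4:132351933-132353686 on the minus strand and hosts Snora73a and Snora73b. Its levels were 15.6, 9.90 and 12.7 CPM in IP libraries and 5.99, 4.59 and 8.88 CPM in unbound libraries. The groups did not overlap, but IP replicate 2 stood only slightly above unbound replicate 3. The log2 fold change was 0.97 ± 0.28 (SE; edgeR quasi-likelihood test, Benjamini-Hochberg adjusted p = 0.0210). It did not pass without IP replicate 1 (0.81, adjusted p = 0.0836) or unbound replicate 2 (0.78, adjusted p = 0.0689), with the lane 2 libraries alone (0.93, adjusted p = 0.0721) or scaled on pan-neuronal markers (0.47, adjusted p = 0.203, all by edgeR's quasi-likelihood test). Rcc1, a protein-coding gene that GENCODE places over Snhg3 on the same strand, stood at 12.2 ± 1.13 CPM in IP libraries and 8.90 ± 0.90 CPM in unbound libraries (SD, n = 3 each). Reads of the 2 genes could be shared.

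Snhg1, the U22 host gene at chr19:8723487-8726326 on the plus strand, was the steadiest of the genes within IP. It stood at 27.8, 28.2 and 28.4 CPM in IP libraries and at 20.3, 17.6 and 22.6 CPM in unbound libraries. Every IP library was above every unbound library. The log2 fold change of 0.48 ± 0.15 passed as a rise (SE; edgeR quasi-likelihood test, Benjamini-Hochberg adjusted p = 0.0285), but scaling on pan-neuronal markers turned it to -0.031. The call was also lost with library size alone (0.38, adjusted p = 0.0624), with the lane 2 libraries alone (0.40, adjusted p = 0.211), and without IP replicate 1 (0.50), IP replicate 2 (0.49) or unbound replicate 2 (0.40), at adjusted p 0.0636 to 0.0993 by edgeR's quasi-likelihood test.

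**Figure D2:**
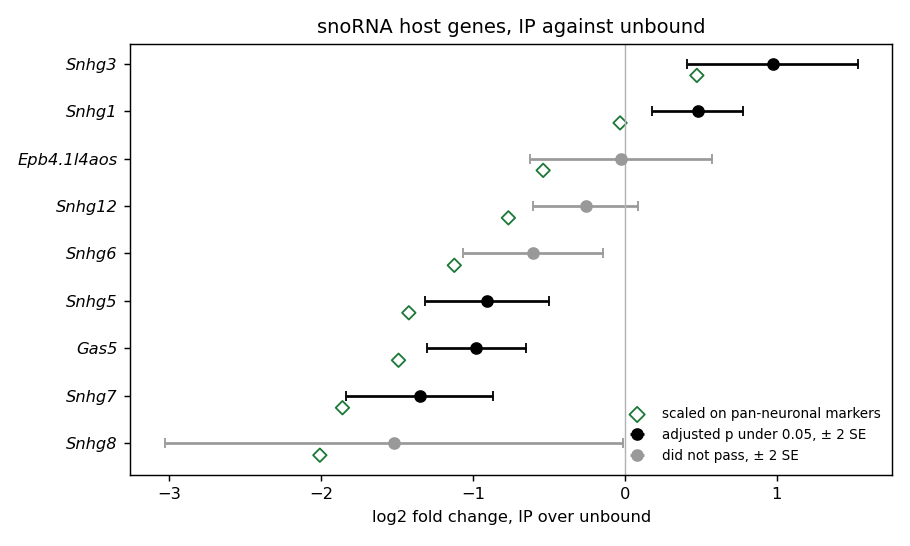
Log2 fold change of each host gene, IP over unbound, with bars of 2 SE on each side, black where the adjusted p was under 0.05 and grey elsewhere, and open green diamonds for libraries scaled on pan-neuronal markers. Snhg3 and Snhg1 lie at 0.97 and 0.48, and Snhg5, Gas5 and Snhg7 between -0.91 and -1.35, while the diamonds stand to the left of the circles for all 9 genes.

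The other 4 genes did not pass. Snhg6, the host of Snord87 at chr1:9942025-9944118 on the minus strand, stood at 4.42, 3.60 and 4.71 CPM in IP and at 7.55, 5.99 and 5.83 CPM in unbound libraries. Its groups did not overlap, and its log2 fold change of -0.60 ± 0.23 missed the threshold (SE; edgeR quasi-likelihood test, Benjamini-Hochberg adjusted p = 0.0607). It passed in 4 of the 16 alternative fits, without unbound replicate 3 among them (-0.67, edgeR quasi-likelihood test, adjusted p = 0.0474). Mcmdc2, which overlaps it on the other strand, stood at 0.76 ± 0.48 CPM in IP libraries and 2.70 ± 0.87 CPM in unbound libraries (SD, n = 3 each).

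Snhg12, at chr4:132308678-132311024 on the plus strand, carries 4 annotated snoRNAs. It stood at 14.4, 14.7 and 17.7 CPM in IP and at 17.4, 17.0 and 21.5 CPM in unbound libraries, with overlapping groups. Its change was -0.26 on the log2 scale, with an SE of 0.17 (edgeR quasi-likelihood test, Benjamini-Hochberg adjusted p = 0.255). It passed as lower with libraries scaled on pan-neuronal markers (-0.77, edgeR quasi-likelihood test, adjusted p = 0.00541).

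Epb4.1l4aos lies on chromosome 18 from 33794892 to 33795989 on the plus strand, with 1 annotated snoRNA inside. Its levels were 6.08, 3.09 and 5.42 CPM in IP and 5.74, 4.099 and 5.04 CPM in unbound libraries, so that the groups overlapped fully. The log2 fold change was -0.03 ± 0.30 (SE), and 2 SE on each side reach from -0.62 to 0.57 (edgeR quasi-likelihood test, adjusted p = 0.953).

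Snhg8, the host of Snora24 at chr3:123507552-123508336 on the minus strand, was the host with the fewest reads. It had 10, 2 and 2 counts in IP libraries and 15, 9 and 16 in unbound libraries. The log2 fold change of -1.52 ± 0.75 did not pass (SE; edgeR quasi-likelihood test, Benjamini-Hochberg adjusted p = 0.133). IP replicate 1 held most of the IP reads. Snhg8 passed without IP replicate 1 (-2.60, edgeR quasi-likelihood test, adjusted p = 0.0491), where the IP libraries left held 2 counts each. It cleared the filter on low counts through its unbound libraries alone. That favoured a fall in advance, so the pass is a description.

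Of the 9 genes 7 had groups that did not overlap, 2 with IP above and 5 with IP below. Over all genes tested the share was 55.9%, with 27.1% above and 28.7% below. Lane 4 holds 1 library a group, replicate 2, which allows no test. There the log2 ratios of IP to unbound were -1.16 for Gas5, -1.45 for Snhg7, -0.98 for Snhg5, 1.11 for Snhg3 and 0.68 for Snhg1, the directions of the lane 2 libraries (-0.90, -1.31, -0.87, 0.93 and 0.40). Without unbound replicate 3 the count was 2 rises and 4 falls, against 4139 rises and 4448 falls among 17256 genes tested. The median of all genes moved by scaling, to -0.11 with library size alone and -0.52 with pan-neuronal markers, and the share of all calls that were higher was 10.7% with pan-neuronal scaling and 47.6% with TMM. Pan-neuronal scaling used the summed counts of the 12 markers, and most of these were of Snap25. Snap25 stood at 12136 ± 706 CPM in IP libraries and 8288 ± 745 CPM in unbound libraries (SD, n = 3 each). It was itself higher in IP, by 0.55 on the log2 scale, so that scaling rests largely on Snap25. With pan-neuronal scaling 0 of the 9 genes rose and 5 fell, and their median was -1.12. Of all 16991 genes 838 rose and 6987 fell under it, so most calls in the whole table were falls too.

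A ratio of reads within one library does not depend on scaling. Ratios to Gas5 were added after the data were seen, and since Gas5 itself was lower in IP, a gene that did not fall stands higher against it, so they describe the same counts again and are no further evidence. For every 100 reads of Gas5 the IP libraries held 20.1, 15.1 and 13.3 reads of Snhg3 and the unbound libraries 3.93, 3.12 and 5.18, a 3.99-fold difference. Snhg1 was at 35.8, 43.0 and 29.7 reads in IP and at 13.3, 11.98 and 13.2 in unbound libraries, a 2.79-fold difference. In both cases all IP libraries were above all unbound libraries. Snhg12 averaged 19.8 ± 2.24 reads per 100 in IP and 11.8 ± 0.63 in unbound libraries, and Epb4.1l4aos 6.06 ± 1.598 in IP and 3.16 ± 0.53 in unbound libraries (SD, n = 3 each), also with no overlap. By contrast Snhg5 averaged 10.4 ± 2.37 reads in IP and 9.80 ± 1.82 in unbound libraries, and its groups overlapped. Ratios of Snhg6, Snhg7 and Snhg8 overlapped too. Of the 8 ratios, 4 had an exact two-sided permutation p of 0.1, the smallest that 3 against 3 libraries can give, and 0.2 after Benjamini-Hochberg adjustment over the 8, so the design cannot pass the threshold here.

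**Figure D3:**
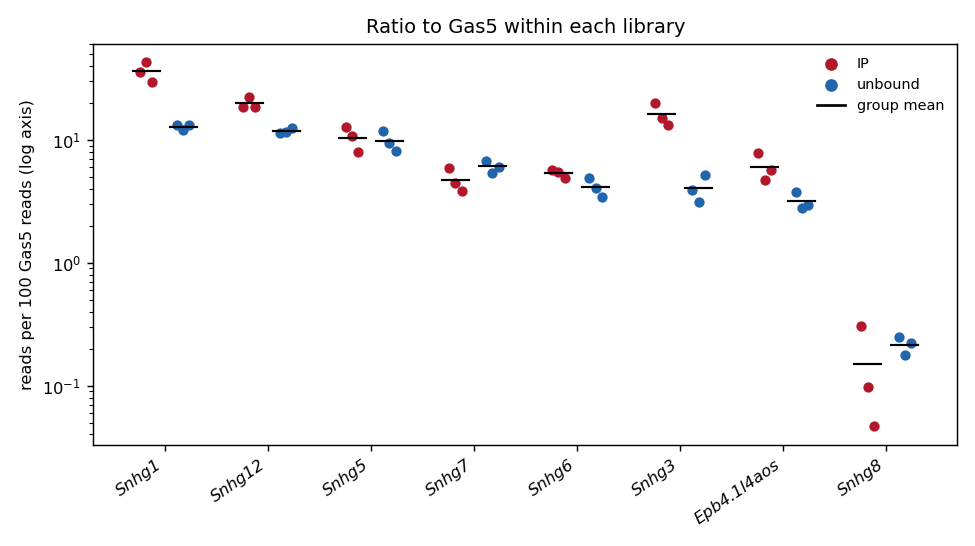
Reads of each host gene per 100 reads of Gas5 in each library on a log axis, IP in red, unbound in blue, group means as bars. Snhg1, Snhg12, Snhg3 and Epb4.1l4aos stand higher in all 3 IP libraries than in any unbound library, and the groups of the other 4 genes overlap.

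The sum over the group was lower in IP. The 9 genes together summed to 157 ± 20.5 CPM in IP and 239 ± 20.6 CPM in unbound libraries (SD, n = 3 each). Gas5 made up 48.4, 48.6 and 54.4% of that sum in IP libraries and 64.0, 67.3 and 65.9% in unbound libraries. Without Gas5 the other 8 genes summed to 77.6 ± 7.12 CPM in IP and 81.9 ± 9.16 CPM in unbound libraries, with ranges that overlapped. That sum combines members that went both ways, with Snhg1 at 28.1 CPM in IP libraries and 20.2 CPM in unbound libraries and Snhg5 at 8.15 CPM in IP libraries and 15.3 CPM in unbound libraries. The sums depend on the scaling, and with pan-neuronal markers that of the 9 genes was 132 CPM in IP and 285 CPM in unbound libraries.

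Levels can be compared between genes only per length, and GENCODE gives a spliced length for a RefSeq-matched transcript of 7 of them, not of Gas5 and Snhg7. In CPM per kilobase of that length, IP libraries averaged 46.5 ± 0.47 for Snhg1, 29.1 ± 6.57 for Snhg3, 25.8 ± 2.98 for Snhg12, 11.3 ± 3.66 for Epb4.1l4aos, 10.6 ± 1.44 for Snhg6, 8.12 ± 1.48 for Snhg5 and 0.149 ± 0.137 for Snhg8. Unbound libraries averaged 33.3 ± 4.11 for Snhg1, 30.8 ± 4.13 for Snhg12, 16.1 ± 2.37 for Snhg6, 15.2 ± 2.32 for Snhg5, 14.8 ± 4.998 for Snhg3, 11.5 ± 1.92 for Epb4.1l4aos and 0.439 ± 0.088 for Snhg8 (SD, n = 3 each). Snhg1 was the highest of the 7 on this scale and Snhg8 the lowest in both groups. Snhg3 stood next to Snhg12 in IP, within the spread, and among the lower genes, beside Snhg5 and Snhg6, in unbound RNA. The matched transcript of Snhg8 has 1 exon, so its length is not that of a spliced RNA.

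The encoded snoRNAs were hardly seen in these libraries. Of the 30 annotated within the hosts, 9 have a row of their own and 7 of these had any count, in total 30 reads in the IP and 134 in the unbound libraries. Snord47 of Gas5 had 0 counts in every IP library and 10, 4 and 10 in unbound libraries. Snora43 of Snhg7 had 0, 3 and 1 counts in IP and 24, 11 and 13 in unbound libraries, and was the one that passed the filter on low counts, with a fall (log2 fold change -3.43 ± 0.95, SE; edgeR quasi-likelihood test, Benjamini-Hochberg adjusted p = 0.0181). Only its unbound libraries reached the level of the filter, which favoured a fall in advance, so that call is a description. Snora17, of the same host, had 2, 0 and 1 counts in IP and 8, 4 and 4 in unbound libraries. In Snhg12, Snora44 had 0 counts in IP and 19 in unbound libraries and Snora61 had 1 in IP and 20 in unbound libraries. Snora16a of the same host went the other way, with 10, 7 and 5 counts in IP and 0 in each unbound library, and did not pass the filter. Snord87 of Snhg6 had 0 counts in IP and 7 in unbound libraries, and Snord22 and Snord99 had 0 in all. Reads that touch both a snoRNA row and its host may be counted for neither, and the setting that decides this is not given in the sources used here.

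Of 14 other noncoding hosts listed, 7 fell and 1 rose, with a median of -0.90, against 23.2% of all genes lower and 21.1% higher. The list was not tested against other genes. Snhg11 stood at 80.9 ± 15.01 CPM in IP libraries and 1425 ± 258 CPM in unbound libraries, and Snhg14, the long transcript that holds clusters of brain snoRNAs, at 16.3 ± 5.34 CPM in IP libraries and 91.2 ± 15.5 CPM in unbound libraries. Meg3 (-4.52) and Rian (-2.59), imprinted transcripts of one chromosomal cluster, fell too. Snhg10 rose by 1.17 (edgeR quasi-likelihood test, adjusted p = 0.0108) but not scaled on pan-neuronal markers (0.66, adjusted p = 0.114, same test). Zfas1, listed as 1500012F01Rik and named after its values were seen, was at 30.8 ± 5.55 CPM in IP libraries and 38.2 ± 12.1 CPM in unbound libraries, and did not pass (SD, n = 3 each).

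Of 8 nuclear long noncoding RNAs listed, Meg3 and Rian again among them, 6 fell and 1 rose, with a median of -2.95. The shares of all genes tested were 23.2% lower and 21.1% higher, and this list was likewise not tested against other genes. Malat1, a transcript retained in nuclear speckles, stood at 1067 ± 308 CPM in IP libraries and 26969 ± 3578 CPM in unbound libraries, or -4.66 on the log2 scale. Miat was at -4.22. Peg13 rose by 1.34. The falls of Gas5, Snhg5 and Snhg7, at -0.98, -0.91 and -1.35, stood above the median of these nuclear RNAs, and the difference was not tested.

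**Figure D4:**
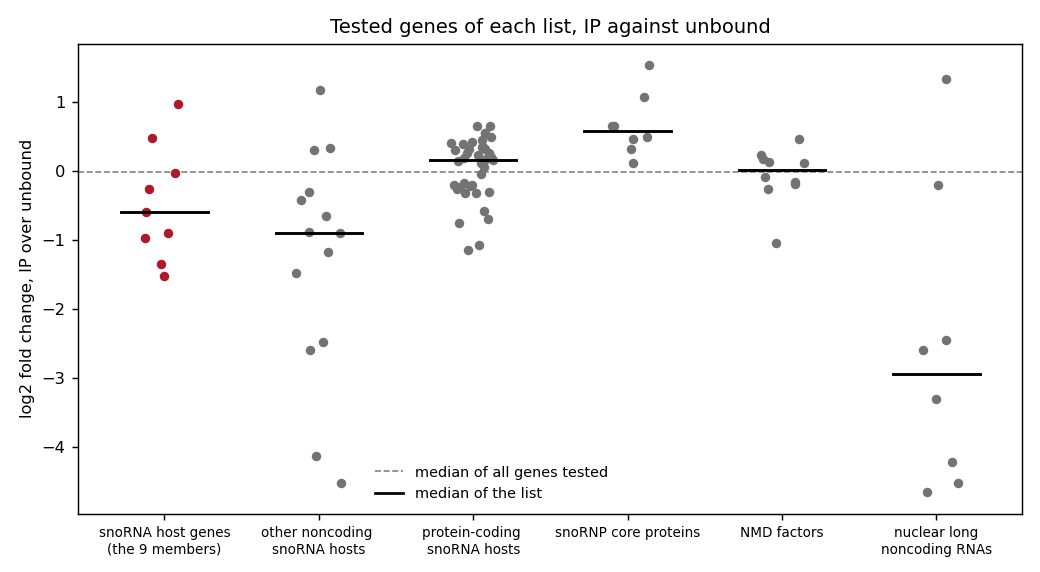
Log2 fold change, IP over unbound, of each tested gene in the 9 host genes (red) and in 5 other lists (grey), with list medians as bars and the median of all genes tested as a dashed line. The 9 hosts spread from -1.52 to 0.97, protein-coding hosts lie around their median of 0.16, and nuclear long noncoding RNAs reach -4.66.

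Protein-coding snoRNA hosts, most of them ribosomal protein and ribosome assembly genes, were tested as a list of 40. Of these 6 rose and 2 fell, with a median of 0.16, against 21.1% and 23.2% of all genes tested and a median of -0.01. The list itself was not tested against other genes. A fit blocked on replicate number called 12 rises, leaving out unbound replicate 3 also 12, and scaling on pan-neuronal markers 0 rises and 15 falls. Over all 16991 genes that scaling gave 838 rises and 6987 falls. Nop58, a core protein of box C/D snoRNPs, rose by 0.64 ± 0.13, Dkc1, the pseudouridine synthase of box H/ACA snoRNPs, by 0.64 ± 0.14, and Tomm20, a mitochondrial import receptor, by 0.55 ± 0.13 (SE). Rps12 (-1.14) and Taf1d (-0.76), a subunit of an RNA polymerase I factor, fell. Taf1d did not pass without IP replicate 2 or unbound replicate 1. Ribosomal protein genes have near-identical pseudogenes, and reads with more than 1 alignment (44.5% in IP and 32.5% in unbound libraries) stayed uncounted, which leaves those levels uncertain.

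Of the transcripts of 8 snoRNP core proteins, which bind snoRNAs, 5 rose and 0 fell, with a median of 0.57, against 21.1% of all genes higher and 23.2% lower. Nop58 and Dkc1 are among these 5 and also among the 6 rises of the protein-coding hosts, and the list was not tested against other genes. Nop10, of the H/ACA complex, stood at 171 ± 23.0 CPM in IP libraries and 59.3 ± 11.04 CPM in unbound libraries (log2 fold change 1.53 ± 0.18, SE; edgeR quasi-likelihood test, Benjamini-Hochberg adjusted p = 4.2e-04). Nhp2l1, the protein that binds the box C/D core, was at 16.2 ± 0.51 CPM in IP libraries and 7.75 ± 0.61 CPM in unbound libraries (SD, n = 3 each), and both passed also when scaled on pan-neuronal markers, where 2 of the 8 rose. Of the 10 NMD factors 1 fell and 1 rose, with a median of 0.01. Smg1, the kinase that phosphorylates Upf1, fell by 1.05 on the log2 scale. Smg8, a regulator of that kinase, rose by 0.46, a call lost when any library was left out and turned to -0.055 by scaling on pan-neuronal markers. Upf3b (0.23) and Smg5 (0.17) did not pass and turned to -0.28 and -0.34 under that scaling.

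A search for profiles like the mean log2 CPM of the 9 hosts left out symbols of the Gm, LOC, Rik or accession kind or opening in lower case. Among the other genes with at least 5 CPM, the most alike over the 6 libraries were Pccb (Pearson r = 0.99), Nr2c1 (0.99), Atg4c (0.98), Cwc27 (0.98) and Tmem159 (0.98). Pccb stood at 34.9 ± 2.35 CPM in IP libraries and 39.8 ± 1.44 CPM in unbound libraries, and Nr2c1 at 6.80 ± 1.39 CPM in IP libraries and 9.89 ± 1.02 CPM in unbound libraries (SD, n = 3 each). With 6 libraries in 2 groups such values are a description, and none of the 5 genes passed the test.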

How the data were processed

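Per the submitters' processing notes, the tools were STAR 2.0.0e and HTSeq and the build mm10. The deposited values are raw counts per gene, 1 table a library. The sources used here name no annotation, strand setting or overlap mode. The 5 summary rows and the row for unknown features stayed out of library sizes and tests.

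The test was that of edgeR 4.0.16 (R 4.3.3): TMM scaling, filterByExpr defaults (minimum count 10, minimum total 15), robust quasi-likelihood fits on group alone, Benjamini-Hochberg adjustment over 16991 genes, threshold 0.05. An SE is the size of the log2 fold change over the square root of F. The fit was tested on simulated data. Alternatives were other scalings, other filters, no Rn45s, Mir6236 and Lars2 rows, DESeq2 1.42.0, limma-voom (limma 3.58.1), the replicate block, lane 2 alone and each library left out. Deviations from group means of same-numbered IP and unbound libraries correlated at 0.14, 0.16 and 0.21 over genes. The block fit, planned as an alternative, treated same-numbered libraries as paired, and the main fit did not. No label states a pairing, and the lane follows the numbers. Replicates differed by far more than counting noise (chi-square per degree of freedom 24.4 to 145).

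Positions are from RefSeq (GRCm38.p6, the build also called mm10) and GENCODE M21. Named genes are the 9 hosts, up to 4 members of a list with the smallest adjusted p and 2 called the other way, and 5 genes most like the hosts' mean with at least 5 CPM. Those 5 were sought without the symbol kinds named above. Marker genes that the rule takes are given by list, and Snap25 and Ttr also by name. Members and lists were chosen with earlier results of these data known. A further gene that overlaps a host is not reported here.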

Additional observations from a re-analysis of the deposited data

How the results depend on the processing

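Gas5 and Snhg7 kept their fall in all 16 alternative fits. Snhg5 was at -0.87 with lane 2 alone and did not pass. Snhg1 was at 0.38 with library size alone, -0.031 with pan-neuronal scaling, 0.40 with lane 2 alone, and 0.40 to 0.57 with a library left out. Snhg3 was at 0.47 with pan-neuronal scaling, 0.93 with lane 2 alone and 0.78 to 1.26 with a library left out. Snhg6 passed with library size alone (-0.70), pan-neuronal scaling (-1.12) and DESeq2 (-0.63), and ranged from -0.67 to -0.44 with a library left out. Snhg12 passed with pan-neuronal scaling (-0.77), and Snhg8 ranged from -2.60 to -1.08 with a library left out and was not tested with at least 10 counts required in every library of a group. Epb4.1l4aos was at 0.025 with no filter, 0.10 with lane 2 alone, 0.23 without IP replicate 2, 0.14 without unbound replicate 1, and -0.20 to 0.23 with a library left out. Of the 9 hosts, 1 rose with library size alone, 0 rose and 5 fell with pan-neuronal scaling, 0 rose with lane 2 alone, and 0 to 2 rose and 3 to 4 fell with a library left out. The causes were not tested.

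Over all genes pan-neuronal scaling gave 838 higher and 6987 lower, and lane 2 alone, with fewer libraries, 1297 and 2538, against 3586 and 3943 of 16991 in the main fit. Library size alone gave 2846 and 4336, and leaving a library out 2489 to 4139 higher and 3263 to 4448 lower. Pan-neuronal scaling gave summed host levels of 132 CPM (IP) and 285 CPM (unbound). It gave 0 rises among other noncoding hosts, 0 rises and 15 falls among protein-coding hosts, 2 rises among snoRNP proteins, and 0 rises and 6 falls among NMD factors, with Smg8 at -0.055, Smg5 at -0.34 and Upf3b at -0.28. Library size alone gave 3 rises and 4 falls among protein-coding hosts and 0 rises among NMD factors. Lane 2 alone gave 0 and 0 among protein-coding hosts, 2 rises among snoRNP proteins and 0 and 0 among NMD factors. The replicate block gave 12 rises among protein-coding hosts and changed no call among the 9 hosts. With a library left out, protein-coding hosts had 3 to 12 rises and 1 to 3 falls and NMD factors 0 rises. Ratios to Gas5 with a library left out, added after the data were seen, ranged from 1.82 to 2.18 (log2) for Snhg3 and 1.35 to 1.61 for Snhg1. Snhg8 and the snoRNAs held few reads, and the part of depth in their calls was not tested.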
